A study of Mus musculus with 4 samples.

Results

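The 57 genes described here carry the detection and repair of DNA double-strand breaks and the checkpoint that halts the cell cycle while repair proceeds. They were chosen by symbol, as named damage kinases, recombination, end joining and Fanconi genes, from the 55335 gene rows of the deposited table, and 1 row matched each symbol. A double-strand break is bound by the MRE11-RAD50-NBN complex or by the Ku heterodimer. The kinases ATM and ATR then signal through CHK2 and CHK1 to hold the cell in place. Breaks are rejoined directly by end joining, which works throughout the cell cycle, or copied from the sister chromatid by homologous recombination, which depends on S and G2 phase. Fanconi proteins open interstrand crosslinks and feed them into recombination. Ionising radiation and many chemotherapy agents act by making these lesions.

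The 4 RNA libraries come from the mouse cell line CT26, a colon carcinoma, grown in RPMI medium with serum, and give FPKM per gene, a level scaled to transcript length and library depth. The libraries titled CT26_102 and CT26_CTL carry the labels FOSL2 wild type and PBS, and those titled CT26_102_R and CT26_CTL_R the labels FOSL2 knockout and chemoradiotherapy, so that genotype and treatment cannot be told apart. The sources used here do not say what the stem CT26_102 or the suffix R stands for, nor the agents, the dose, the time or the clone, and the series text calls the cells knockdowns. Each title is 1 library, so every comparison sets 2 libraries against 2, and no title was repeated. The p-values describe the spread of these libraries alone, which may be technical. That spread is how far the difference with suffix R departs between the 2 stems, pooled with that of other genes.

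Steps between low FPKM values put the depth at about 21610000 to 26370000 fragments per library, with 31.7 to 33.9% of low values whole within 0.02 fragments. FOSL2 pairs with JUN proteins to form AP-1. Its transcript Fosl2 was at 9.35 (CT26_102), 16.0 (CT26_102_R), 12.7 (CT26_CTL) and 19.2 FPKM (CT26_CTL_R). All sets of 4 values keep this library order. Fosl2 was higher, not lower, in both libraries labelled knockout (0.64 ± 0.13 on the log2 scale, limma adjusted p = 0.0444). These libraries are also labelled chemoradiotherapy and no protein level is given, so the knockout label was not tested. Of 8 epithelial markers 3 reached 1 FPKM in any library (Krt8, Krt18 and Krt20), while Epcam and Cdx2 were listed at 0 in all 4. The 6 mesenchymal markers all reached 1 FPKM and summed to 660 to 992 FPKM. The T cell marker Cd3e was listed at 0, 3 endothelial markers summed to under 0.5 FPKM, and the myeloid lysozyme gene Lyz2 was at 15.0, 53.1, 13.1 and 4.36 FPKM, beside Ptprc, the common leukocyte marker, at 0.0217 to 0.0880. Csf1r, a receptor gene of macrophages, was at 1.10, 1.998, 0.965 and 0.159, in the same order as Lyz2, and these 2 of 9 leukocyte markers reached 1 FPKM.

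Transcripts of the 57 genes were mostly low. The median member was at 3.72, 2.82, 3.93 and 2.62 FPKM, against 6.95, 7.15, 6.58 and 6.40 for all 11955 genes tested, those with at least 1 FPKM in at least 2 libraries. Of the 57 members, 56 passed that filter, and the crosslink repair gene Fancc, at 0.619, 0.378, 0.916 and 0.537 FPKM, did not. Parp1, whose protein binds broken ends and adds poly(ADP-ribose), had the highest mean, followed by the checkpoint clamp gene Rad9a, the Ku subunit gene Xrcc5 and the end sensing gene Nbn. Of the apical kinases, Atr and Prkdc were among the weakest transcripts per length. Atr, the kinase that answers single-stranded DNA, was at 1.55, 0.797, 1.38 and 0.647 FPKM. Prkdc, the catalytic subunit of DNA-PK, was at 2.24, 1.85, 1.47 and 1.25. Atm was at 4.43, 1.78, 1.21 and 0.812, above the member median in CT26_102 only. Summed over all members, FPKM was 330, 254, 289 and 217, lower with suffix R in each stem.

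**Figure D1:**
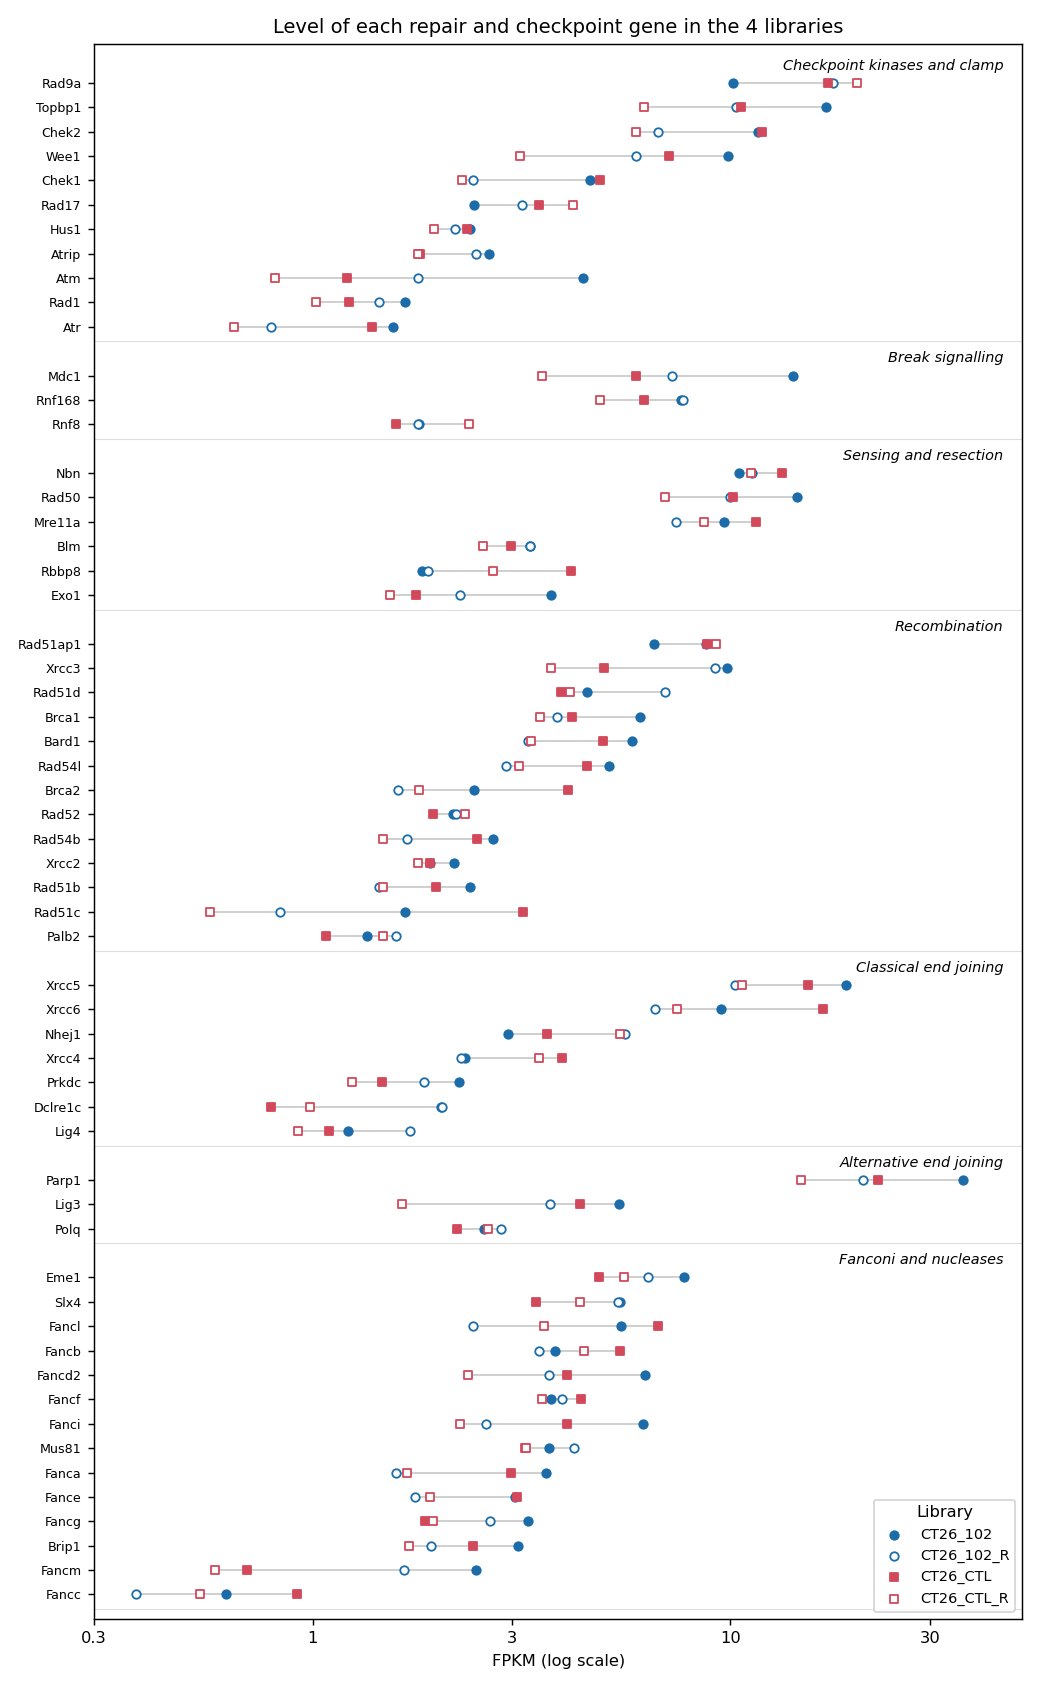
Level of each of the 57 genes in FPKM (log scale) in the 4 libraries, 1 symbol per library, grouped by role and ordered by mean; circles are stem CT26_102, squares stem CT26_CTL, and open symbols carry suffix R. Parp1 lies farthest right at 14.8 to 36.0 FPKM and Fancc farthest left at 0.378 to 0.916, and open symbols lie left of filled ones for many checkpoint and Fanconi genes.

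The first comparison asked which of these genes differ between the libraries with suffix R, labelled FOSL2 knockout with chemoradiotherapy, and those without it. With suffix R, 10 of 56 tested members fell, 0 rose and 46 did not pass. Over all genes tested 5.32% fell and 7.57% rose, and those that fell made 17.9% of the tested members. The 10 were the checkpoint genes Chek1, Chek2, Topbp1 and Wee1, the break signalling gene Mdc1, the end binding gene Parp1 and the Fanconi genes Fanca, Fancd2, Fanci and Fancl. The median difference of members was -0.23 on the log2(FPKM + 1) scale, against 0.00 for all genes tested. In stem CT26_102 that median was -0.30 and in stem CT26_CTL it was -0.26.

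A call here is an adjusted p under 0.05 over all genes tested in limma's moderated fit with both the stem and the suffix as terms. The calls rest on that design. With the suffix alone in the limma fit 0 members passed (10 had an unadjusted p under 0.05), and 0 without the filter on low values (22 had one). This held for nearly all genes: 0 rose and 1 fell of 11955 with the suffix alone, and 0 of 27670 passed without the filter. In those 2 fits 1281 and 4937 of all genes had an unadjusted p under 0.05 in limma. Upper-quartile rescaling gave 15 members that fell and 0 that rose, while over all genes it turned 905 higher and 636 lower into 937 and 1011. In both stems each of the 10 had a lower FPKM with R, at 0.420 to 0.655 times the level without it. Fewer cells in S and G2 phase and less RNA per cell cannot be told apart in bulk libraries.

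Both R libraries lay below both others for 26 of 57 members (45.6%), beside 21.1% of all genes tested, and above both others for 5 (8.77%, beside 22.3%). Those 5 were Nhej1, Palb2, Polq, Rad52 and Rad9a. Across the 57 members the suffix difference in stem CT26_102 had a correlation with that in stem CT26_CTL of 0.71 (Pearson) and 0.76 (Spearman), from pairs that share no library. Over all genes tested the corresponding values were 0.66 and 0.69. Both stems gave a lower value with R for 38 members and a higher one for 10, and 9 members went opposite ways, none by 0.25 or more in both stems.

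**Figure D2:**
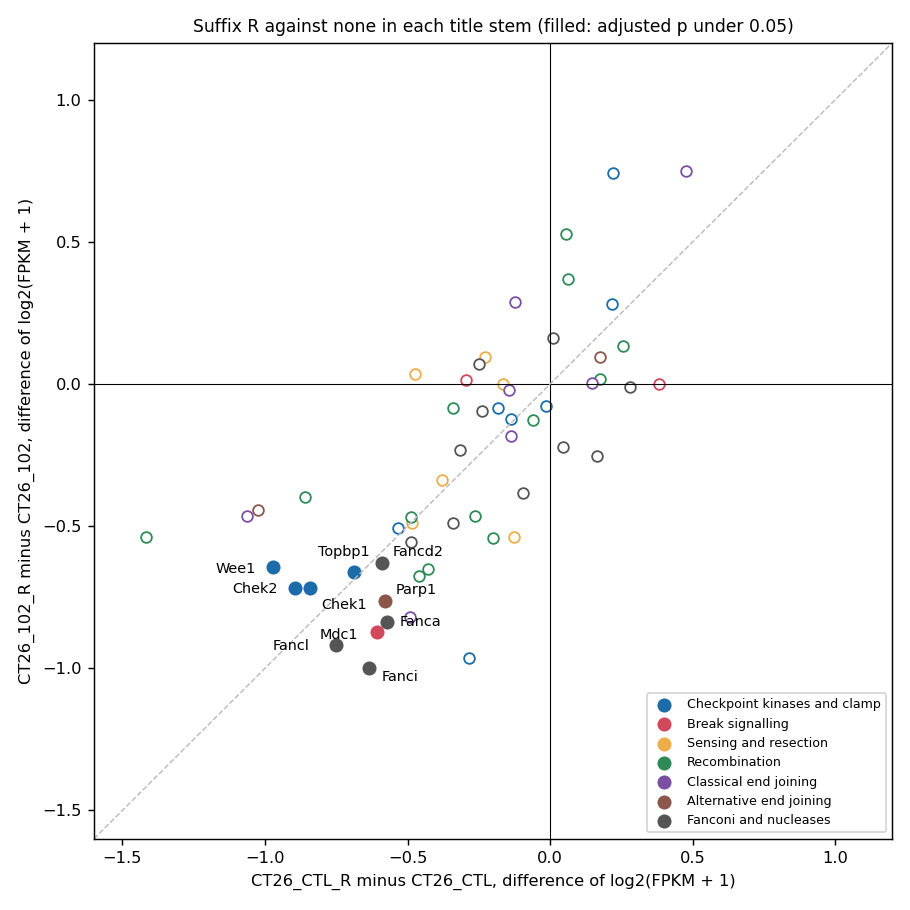
Difference of log2(FPKM + 1) between the library with suffix R and the one without it, in stem CT26_CTL (x axis) and stem CT26_102 (y axis), 1 point per gene coloured by role; filled and named points passed an adjusted p of 0.05, and the dashed line marks equal differences. The 10 filled points lie in the lower left, and the open points reach from Rad51c at the far left to Nhej1 and Rad9a at the top right.

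Among the checkpoint genes 4 of 11 fell, 0 rose and 7 did not pass. Chek1 (ENSMUSG00000032113, GRCm38 chromosome 9, 36708482 to 36727065), the effector kinase below ATR, was at 4.61, 2.42, 4.87 and 2.27 FPKM. Chek2 (ENSMUSG00000029521, chromosome 5, 110839979 to 110874145), the effector kinase below ATM, was at 11.6, 6.70, 11.9 and 5.94. For both kinase genes the stems were nearly level and the R libraries stood apart without overlap. Chek1 fell by 0.78 ± 0.14 on the log2 scale (standard error, n = 2 libraries per side, limma adjusted p = 0.0369). Chek2 fell by 0.81 ± 0.14 (limma adjusted p = 0.0340).

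Wee1 (ENSMUSG00000031016, chromosome 7, 110122046 to 110143286) encodes the kinase that keeps CDK1 inactive before mitosis. Its FPKM was 9.85, 5.93, 7.11 and 3.14, and both R libraries were below both others. Wee1 fell by 0.81 ± 0.15 (limma adjusted p = 0.0393). Topbp1 (ENSMUSG00000032555, chromosome 9, 103305215 to 103350428), whose protein switches ATR on, was at 16.9, 10.3, 10.6 and 6.21 FPKM, a drop of 0.675 ± 0.129 (limma adjusted p = 0.0407). The R library of stem CT26_102 was thus about level with the library CT26_CTL.

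The kinases at the top of both branches did not pass. Atm was at 4.43, 1.78, 1.21 and 0.812 FPKM (limma adjusted p = 0.104), and its R value in stem CT26_102 lay above both CT26_CTL libraries. Atr was without overlap between the suffix groups (limma adjusted p = 0.0812), whereas its partner gene Atrip was at 2.65, 2.46, 1.81 and 1.78. The FPKM ratio of Atrip to Atr was therefore 1.71, 3.09, 1.31 and 2.76. Atrip shares 16% of its exonic bases with Trex1 on the same strand, where strand cannot separate the reads. The 9-1-1 clamp, a ring loaded at damaged DNA, is formed by RAD9, HUS1 and RAD1, and RAD17 loads it. Rad9a was at 10.1, 17.6, 17.1 and 20.1 FPKM, a difference of 0.48 ± 0.17 (limma adjusted p = 0.116), Rad17 at 2.43, 3.18, 3.47 and 4.20, Hus1 at 2.39, 2.19, 2.34 and 1.95 and Rad1 at 1.66, 1.44, 1.22 and 1.02. The ratio of Rad9a to Hus1 was 4.25, 8.02, 7.31 and 10.3, lowest in CT26_102. Rad9a shares 9.53% of its exonic bases with Ppp1ca on the opposite strand, and whether counting used strand is not stated, so reads in that stretch cannot be told apart.

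In the break signalling group 1 of 3 genes fell. Mdc1 (ENSMUSG00000061607, chromosome 17, 35841515 to 35859670) encodes the scaffold that binds phosphorylated H2AX and recruits ubiquitin ligases. It was at 14.1, 7.26, 5.93 and 3.55 FPKM, with the suffix groups overlapping because the whole of stem CT26_102 was higher. Mdc1 fell by 0.74 ± 0.14 with suffix R (limma adjusted p = 0.0414). The ligase gene Rnf168 was at 7.62, 7.71, 6.23 and 4.88 and Rnf8 at 1.79, 1.79, 1.59 and 2.37, so neither showed the Mdc1 pattern in both stems. Rnf8 shares 13.2% of its exonic bases with Gm28043 on the same strand.

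Parp1 (ENSMUSG00000026496, chromosome 1, 180568924 to 180601254) was at 36.0, 20.8, 22.6 and 14.8 FPKM and fell by 0.67 ± 0.13 (limma adjusted p = 0.0413). Lig3, the ligase of alternative end joining and single-strand break repair, was at 5.41, 3.71, 4.36 and 1.63 without overlap, but did not pass (limma adjusted p = 0.0632). It shares 25.1% of its exonic bases with Rffl on the opposite strand. Polq, the polymerase that anneals resected ends, was at 2.57, 2.82, 2.21 and 2.62 and so did not share the lower values of Parp1 and Lig3.

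Of 13 tested genes in the Fanconi and crosslink nuclease group 4 fell, 0 rose and 9 did not pass. FANCD2 and FANCI form the clamp that is ubiquitinated at a crosslink, and their genes had similar levels: Fancd2 (ENSMUSG00000034023, chromosome 6, 113531682 to 113597017) was at 6.25, 3.68, 4.05 and 2.36 FPKM and Fanci (ENSMUSG00000039187, chromosome 7, 79391929 to 79450264) at 6.19, 2.60, 4.06 and 2.25. Fancd2 fell by 0.61 ± 0.14 (limma adjusted p = 0.0498) and Fanci by 0.82 ± 0.16 (limma adjusted p = 0.0414). Both R libraries were below both others for each. Fancl (ENSMUSG00000004018, chromosome 11, 26386135 to 26471876), the ubiquitin ligase subunit of the core complex, was at 5.46, 2.42, 6.72 and 3.59 and fell by 0.83 ± 0.14 (limma adjusted p = 0.0337). Fanca (ENSMUSG00000032815, chromosome 8, 123268300 to 123318576), a core complex subunit, was at 3.62, 1.58, 2.99 and 1.68 and fell by 0.71 ± 0.15 (limma adjusted p = 0.0486).

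The calls for Fanca and Fancd2 were the closest to the threshold and were lost in 7 of 8 alternative settings. Fanca, Fanci and Fancl share 10.5%, 16% and 13.7% of their exonic bases with the opposite-strand genes Zfp276, Polg and Vrk2. The rest of the core complex was uneven. Fance was at 3.05, 1.75, 3.08 and 1.91, lower with R in both stems, whereas Fancb was at 3.80, 3.49, 5.44 and 4.45, Fancf at 3.73, 3.96, 4.39 and 3.54 and Fancg at 3.27, 2.66, 1.85 and 1.94. Fancm, the translocase that anchors the complex, was at 2.47, 1.66, 0.695 and 0.585, and Brip1, a helicase that binds BRCA1, at 3.10, 1.92, 2.41 and 1.70. The nuclease genes Mus81 (3.67, 4.23, 3.22 and 3.25) and Eme1 (7.75, 6.33, 4.85 and 5.55) and their scaffold Slx4 (5.43, 5.39, 3.42 and 4.37) were within 1.28 times between suffixes in each stem.

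No gene of the recombination, resection or classical end joining groups passed, 0 of 13, 0 of 6 and 0 of 7. In these groups 5, 2 and 3 were at an unadjusted p under 0.05 in limma, beside 4315 of all 11955 genes tested. Brca1, the tumour suppressor that directs resected ends to recombination, was at 6.06, 3.84, 4.18 and 3.50 FPKM, and its partner Bard1 at 5.82, 3.27, 4.96 and 3.34. Brca2, a tumour suppressor gene of recombination, was at 2.43, 1.60, 4.08 and 1.80, so the library CT26_CTL stood above the other 3. Rad54l, a motor protein of strand exchange, was at 5.12, 2.89, 4.54 and 3.12 and its relative Rad54b at 2.71, 1.68, 2.48 and 1.48. Rad54b shares 35.8% of its exonic bases with Fsbp on the same strand, and Rad54l 15.4% with Lrrc41 on the opposite one. Brca1, Bard1, Brca2, Rad54l and Rad54b lay without overlap between suffixes, with limma adjusted p from 0.0620 for Bard1 to 0.156 for Brca1.

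Other recombination genes did not move as 1 unit. Rad51c had the largest difference of all members, -0.98 ± 0.25 (limma adjusted p = 0.0617), at 1.66, 0.833, 3.18 and 0.567 FPKM. Without either CT26_CTL library the difference was -0.54, and without either CT26_102 library -1.42. Rad51b was at 2.37, 1.44, 1.98 and 1.48 and Xrcc2 at 2.18, 1.91, 1.91 and 1.79, while Rad51d was at 4.54, 6.98, 3.93 and 4.12, higher with R in both stems. Rad51ap1 (6.56, 8.76, 8.81 and 9.23), Rad52 (2.17, 2.20, 1.94 and 2.32) and Palb2 (1.35, 1.58, 1.08 and 1.47) were also at or above their partners with R, while Xrcc3 (9.82, 9.19, 4.97 and 3.71) was below in both stems.

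In the MRN complex, which senses and trims ends, Rad50 was at 14.4, 9.96, 10.2 and 6.97 FPKM, Mre11a at 9.65, 7.43, 11.5 and 8.65 and Nbn at 10.5, 11.3, 13.3 and 11.2. The 3 subunit genes thus had levels of the same order, and the ratio of Nbn to Mre11a was 1.09, 1.52, 1.15 and 1.29. Exo1, the long-range resection nuclease, was at 3.72, 2.25, 1.77 and 1.53, the helicase gene Blm at 3.31, 3.31, 2.99 and 2.56, and Rbbp8, which encodes the resection factor CtIP, at 1.83, 1.89, 4.15 and 2.70.

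For classical end joining, Xrcc5 (the Ku80 subunit) was at 18.9, 10.3, 15.4 and 10.6 FPKM and Xrcc6 (Ku70) at 9.49, 6.60, 16.6 and 7.44. Neither passed, at limma adjusted p = 0.0502 and 0.0581, though both R libraries were below both others for each. Nhej1, which encodes the XLF factor that aligns ends, went the other way at 2.93, 5.59, 3.63 and 5.44, a difference of 0.61 ± 0.15 (limma adjusted p = 0.0573), and was the highest positive difference among members. Its ligase partners Lig4 (1.21, 1.71, 1.09 and 0.920) and Xrcc4 (2.31, 2.26, 3.94 and 3.47), the nuclease gene Dclre1c (2.03, 2.04, 0.793 and 0.984) and Prkdc showed no common direction with R.

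Many repair genes are transcribed mainly in S and G2 phase under E2F control, and the members were divided by a list of such genes from general knowledge. Of 20 S/G2-peaked members 5 fell and 0 rose (Chek1, Fanca, Fancd2, Fanci and Topbp1), with a median of -0.39. Of the 36 other tested members 5 fell and 0 rose, with a median of -0.14. The 5 off that list were Chek2, Fancl, Mdc1, Parp1 and Wee1. Beside them, 14 proliferation markers, a list added after the values were seen, summed to 602, 414, 522 and 347 FPKM. Of the 14, 5 fell (35.7%: Ccna2, Ccnb2, Mcm6, Plk1 and Top2a) and 0 rose, beside 5.32% and 7.57% of all genes tested. Mki67, the usual marker of cycling cells, was at 34.2, 23.9, 31.3 and 33.5, and Cdkn1a, the p53-induced inhibitor p21, at 92.2, 359, 94.6 and 377. The part of the cell cycle in the differences of the repair genes was not tested.

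Promoter sequences from RefSeq (GRCm38.p6, 250 bases before to 50 after the start) were found for 46 of 57 members, including 8 of the 10 that fell. They were searched on both strands for E2F-type sites (TTTGGCGC, TTTCGCGC, TTTCCCGC or TTTGCCGC), for CCAAT, the site of NF-Y, and for the cell cycle element CHR (TTTGAA or TTTAAA). None of these motifs contains another, and a match is a description only. An E2F-type match was in 8 of 46 members (17.4%), beside 2.6% of 27025 genes with a promoter. Of the 8 members called as lower with suffix R 3 had one (37.5%), Chek2, Mdc1 and Topbp1. Of 38 members not called as lower 5 had one (13.2%), Bard1, Brca2, Fancg, Rad51c and Xrcc6. All of these 5 but Fancg had both R libraries below both others, so the split is by call and not by direction. CCAAT was in 24 of 46 (52.2%, beside 41.1%) and CHR in 12 (26.1%, beside 30.6%). For these the order was the other way: CCAAT was in 3 of the 8 that fell (37.5%) and 21 of the 38 others (55.3%), and CHR in 0 of 8 and 12 of 38 (31.6%). By the S/G2 list, an E2F-type match was in 3 of 15 S/G2-peaked members with a promoter (20%) and 5 of 31 other members (16.1%). The promoters of members also held more G and C, a median of 59.2% beside 52.8%. They held more CG pairs, a median count of 22 beside 7, and each E2F-type site contains CG. The part of base composition in these shares was not tested.

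The windows below show the matches in 4 genes that fell, 3 with an E2F-type match and Fanca with a pair of CCAAT boxes, and in Xrcc3, which was higher in stem CT26_102. Each runs 5′ to 3′ on the gene's strand, in lower case with matches in capitals, and positions count back from -1, the base before the RefSeq start. A match on the other strand appears as its reverse complement, so CCAAT reads as ATTGG. Chek2 (chr5:110839783-110839978, plus strand) covers -200 to -5, with its E2F-type match at -152 between CCAAT matches at -186 and -26. Mdc1 (chr17:35841398-35841497, plus strand) covers -100 to -1, with CCAAT at -75 and the E2F-type match at -16. Topbp1 (chr9:103305127-103305214, plus strand) covers -200 to -113, with the E2F-type match at -129. Fanca (chr8:123318577-123318676, minus strand) covers -100 to -1, with CCAAT at -50 and -23. Xrcc3 (chr12:111813880-111814129, minus strand) covers -250 to -1 and holds 6 CCAAT matches.
Chek2: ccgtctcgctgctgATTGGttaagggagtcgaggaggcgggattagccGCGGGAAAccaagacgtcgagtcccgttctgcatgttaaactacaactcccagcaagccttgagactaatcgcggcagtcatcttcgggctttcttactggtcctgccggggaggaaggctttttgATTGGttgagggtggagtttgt
Mdc1: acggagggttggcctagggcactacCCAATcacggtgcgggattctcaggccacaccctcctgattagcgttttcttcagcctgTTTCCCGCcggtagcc
Topbp1: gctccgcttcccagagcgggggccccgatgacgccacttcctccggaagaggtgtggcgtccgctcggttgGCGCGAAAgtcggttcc
Fanca: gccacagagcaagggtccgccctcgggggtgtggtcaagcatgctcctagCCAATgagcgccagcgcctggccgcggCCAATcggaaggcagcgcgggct
Xrcc3: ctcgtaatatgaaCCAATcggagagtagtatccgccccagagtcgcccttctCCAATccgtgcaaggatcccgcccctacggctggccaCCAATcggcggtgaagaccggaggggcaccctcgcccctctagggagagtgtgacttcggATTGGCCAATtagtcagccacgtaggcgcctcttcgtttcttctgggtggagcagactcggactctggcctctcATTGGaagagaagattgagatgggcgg

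The second comparison asked which members differ between the title stems, whose meaning the labels do not give. In stem CT26_102, 7 of 56 members were higher than in CT26_CTL and 0 were lower, which is 12.5% and 0% of members beside 12.5% and 9.44% of all genes tested. The share of higher members was thus the same as the background. The median difference was 0.12, against 0.05 for all genes. The 7 were spread over 6 of 7 roles and comprised Atm, Topbp1, Mdc1, Xrcc3, Dclre1c, Parp1 and Fancm. Both CT26_102 libraries lay above both CT26_CTL libraries for 18 of 57 members (31.6%, beside 28% of all genes) and below both for 5 (8.77%, beside 20.9%), namely Fancb, Rad17, Rad51ap1, Rbbp8 and Xrcc4.

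On the log2(FPKM + 1) scale Mdc1 had the largest stem difference, 0.99 ± 0.14 (limma adjusted p = 0.0166), 2.39 times without and 2.05 times with suffix R. The FPKM ratios of Atm, Fancm and Dclre1c, given below, were larger than those of Mdc1 both without and with R. Xrcc3 (ENSMUSG00000021287, chromosome 12, 111803192 to 111813873), a recombination gene, was at 9.82, 9.19, 4.97 and 3.71 FPKM, a difference of 0.98 ± 0.14 (limma adjusted p = 0.0167). For Xrcc3 the stems were far apart and the suffixes close. Atm (ENSMUSG00000034218, chromosome 9, 53439149 to 53536740) was 3.67 and 2.19 times as high in stem CT26_102, a difference of 0.96 ± 0.21 (limma adjusted p = 0.0375), and of 0.62 when either library without suffix R is left out. Fancm (ENSMUSG00000055884, chromosome 12, 65075603 to 65132058) was 3.55 and 2.83 times as high, 0.89 ± 0.16 (limma adjusted p = 0.0261). Dclre1c (ENSMUSG00000026648, chromosome 2, 3424131 to 3464130), which encodes the nuclease Artemis that opens hairpin ends, was 2.56 and 2.07 times as high (limma adjusted p = 0.0384). Topbp1 differed by 0.64 ± 0.13 (limma adjusted p = 0.0311) and Parp1 by 0.56 ± 0.13 (limma adjusted p = 0.0416), so these 2 and Mdc1 passed in both comparisons. With the stem alone in the fit, and without the filter on low values, 0 members passed (4 and 11 had an unadjusted p under 0.05). Over all genes in those 2 fits the counts were 2000 of 11955 and 5802 of 27670.

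**Figure D3:**
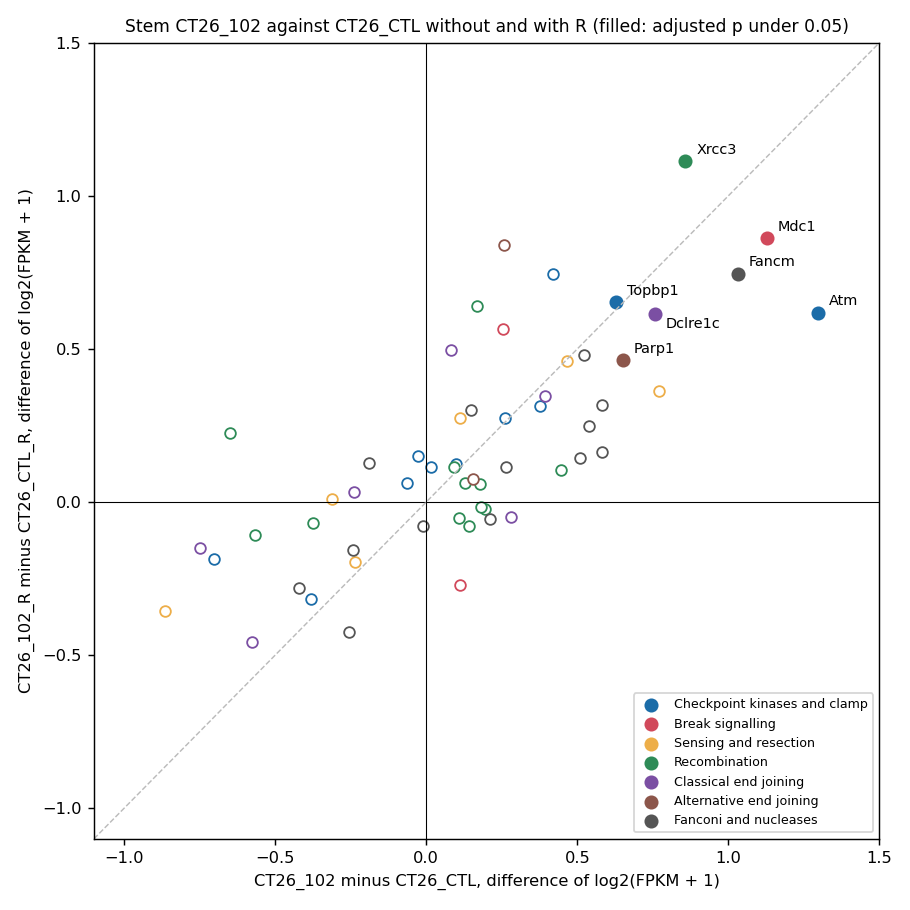
Difference of log2(FPKM + 1) between stems CT26_102 and CT26_CTL, in the libraries without suffix R (x axis) and with it (y axis), 1 point per gene coloured by role; filled and named points passed an adjusted p of 0.05, and the dashed line marks equal differences. The 7 filled points are all in the upper right, with Atm farthest right and Xrcc3 highest.

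Repair genes are long. The median member had 5774 exonic bases and spanned 33888 bases of genome, against 3887 and 18381 for all genes tested, from Nhej1 with 1118 exonic bases to Atr with 23629. Over all genes tested the suffix difference had a median of 0.13 in the shortest of 10 bins by exonic length and -0.18 in the longest, and the stem difference went from -0.19 to 0.31. Members were set against this trend in 3 bins of exonic length. With suffix R the shortest bin had a median of -0.14, beside 0.08 for all genes of those lengths, the middle bin -0.42 beside -0.05 and the longest -0.33 beside -0.16. For the stems the medians were 0.06, 0.11 and 0.19, beside -0.02, 0.12 and 0.28. In each bin the members were thus below other genes of like length with suffix R, whereas for the stems they were above them in the shortest bin and below in the others. By genomic span the suffix medians were -0.09, -0.45 and -0.41 from the shortest to the longest bin, beside 0.10, -0.04 and -0.15.

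**Figure D4:**
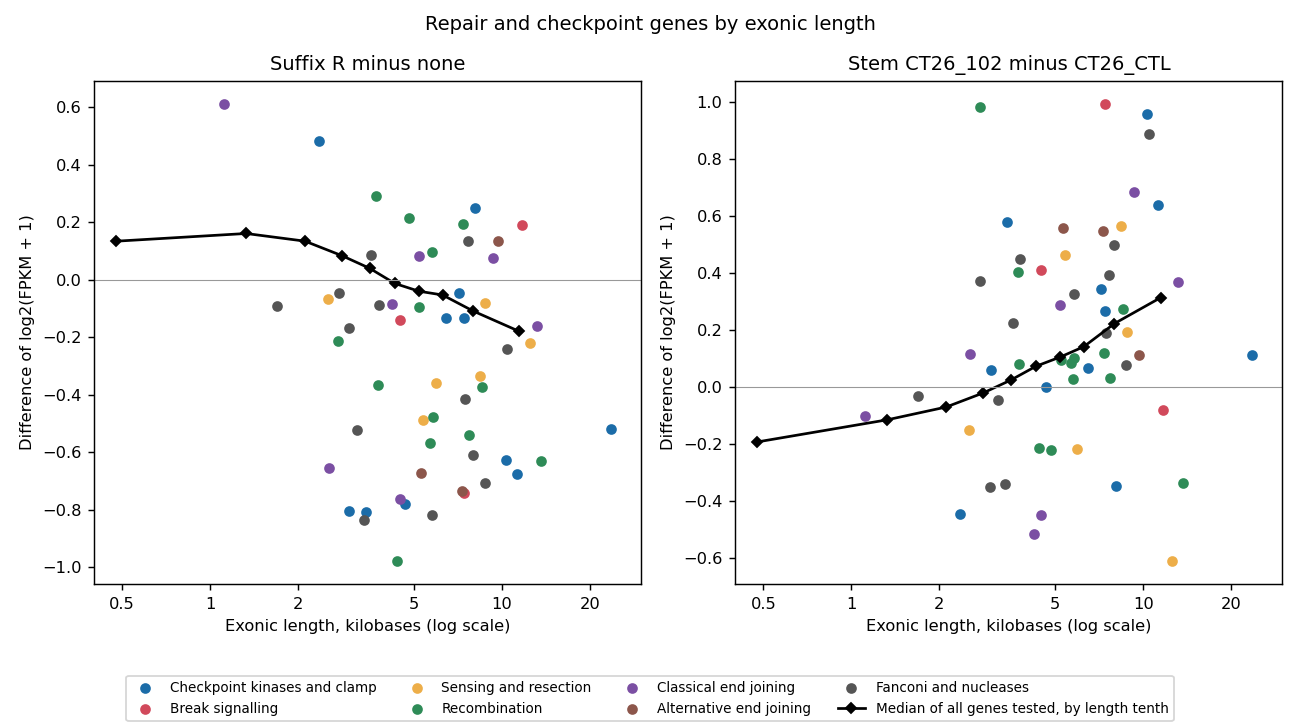
Difference of log2(FPKM + 1) with suffix R (left) and in stem CT26_102 (right) against exonic length in kilobases (log scale), 1 point per tested member coloured by role; the black line joins the medians of all genes tested in 10 bins of length. Most points lie below the line on the left, and on the right they scatter about the rising line.

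Across the 56 tested members the suffix difference had a Spearman correlation of -0.06 with exonic length and -0.29 with span, beside -0.23 and -0.21 over all genes tested. The stem difference had 0.24 and -0.10, beside 0.30 and 0.26. When the trend on exonic length over all genes was removed from each library, 7 members fell with suffix R and 0 rose. Over all 11955 genes in that fit 614 fell and 831 rose. Of the 10, 6 remained (Chek1, Chek2, Fanci, Fancl, Parp1 and Wee1), and Xrcc5 was added at an adjusted p of 0.0459 in limma. In the same fit 1100 of all genes tested were higher in stem CT26_102 and 1093 lower. Mdc1 and Xrcc3 of the 7 members still passed as higher there, 1 member was lower (Rbbp8), and the member median went from 0.12 to 0.038. The other 5 kept a positive difference without passing, with Atm at 0.68, Fancm at 0.61, Parp1 at 0.45, Dclre1c at 0.43 and Topbp1 at 0.34. Their limma adjusted p went from 0.0625 for Fancm to 0.119 for Topbp1.

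A wider list of 91 other genes of break signalling, replication stress and crosslink repair, of which 88 were tested, gave 4 that rose and 8 that fell with suffix R (4.55% and 9.09%, beside 7.57% and 5.32% of all genes tested). Its median was -0.17, against 0.00 for all genes. H2afx, the histone variant phosphorylated at breaks, was at 24.9, 9.99, 25.4 and 11.1 FPKM and fell by 1.18 ± 0.13 (limma adjusted p = 0.0198), close to 1 value per suffix group in both stems. Fignl1, an ATPase of recombination, was at 4.64, 0.823, 6.20 and 3.50, and fell (limma adjusted p = 0.0489). Rif1, which protects ends from resection, fell from 4.86 to 2.74 and from 4.21 to 2.16 FPKM, Tdp1, which clears stalled topoisomerase I, from 4.03 to 2.01 and from 2.88 to 1.19, and the CDK-activating phosphatase gene Cdc25b from 37.6 to 21.5 and from 34.0 to 19.0.

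The 4 of that list that rose were Ppm1d, Rnf169, Nsmce2 and Rev1. Ppm1d encodes the phosphatase WIP1, a p53-induced enzyme that switches checkpoint kinases off. It was at 4.54, 21.2, 3.87 and 13.2 FPKM, a difference of 1.77 ± 0.17 (limma adjusted p = 0.0179). Rnf169, whose protein competes with 53BP1 for ubiquitinated chromatin, was at 3.91, 11.4, 2.04 and 6.43, a difference of 1.31 ± 0.13 (limma adjusted p = 0.0187). Nsmce2, a SUMO ligase subunit of the SMC5/6 complex, was at 9.46, 17.7, 17.5 and 24.9, and Rev1, a translesion polymerase gene, at 6.99, 11.7, 4.77 and 7.84. With suffix R the phosphatase gene Ppm1d was thus higher in both stems while its substrate kinases' genes Chek1 and Chek2 were lower in both.

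Between stems 8 of the 88 were higher in CT26_102 and 7 lower (9.09% and 7.96%), both shares below those of all genes tested (12.5% and 9.44%). Rfwd3, a ubiquitin ligase of crosslink repair, was at 12.9, 9.67, 5.92 and 5.18 FPKM, Rev3l, the catalytic subunit gene of polymerase zeta, at 2.17, 1.30, 0.764 and 0.565 and the fork remodeller Hltf at 4.25, 3.09, 1.97 and 1.74. Also higher were Babam1, Rnf169 and Rtel1 among the 10 largest differences. Lower in stem CT26_102 were Sfr1, an accessory factor of recombination, at 52.8, 43.1, 82.8 and 76.4, Tdp2 at 6.23, 4.69, 10.7 and 8.26, Babam2 at 6.37, 4.48, 11.3 and 8.02, and Nsmce2. The BRCA1-A complex genes Babam1 and Babam2 thus differed between stems in opposite directions, Babam1 at 39.1, 50.6, 26.1 and 29.0 FPKM.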

How the data were processed

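The deposited table gives FPKM per gene for each of the 4 libraries, as the authors computed it. The submitters' processing notes name the builds GRCm38 and mm10, and no source used here names the aligner, the quantifier or the strandedness. Groups came from the labels, stems and suffixes from the titles. Members and lists were chosen with earlier results of these data known, and all lists came from general knowledge, that of proliferation markers being added after the values were seen. The rule names every member that passed, the highest and lowest of each role, members of known complexes and, of the wider list, the 10 largest differences past the threshold. Other members were added with their values so that each is accounted for. A result for 1 gene of the wider list is not reported here.

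Genes reaching 1 FPKM in 2 or more libraries were fitted as log2(FPKM + 1) in R 4.3.3 with limma 3.58.1 (lmFit, eBayes with trend), with stem and suffix as terms. Adding 1 understates folds of low genes. The fit leaves 1 residual degree of freedom, and the prior adds 4.01. P-values were two-sided and Benjamini-Hochberg adjusted over all 11955 genes, with the script checked on simulated data. An exact permutation test of 2 against 2 cannot pass 0.05 and was not run. Across all genes tested, the stem differences without and with R had a Pearson correlation of 0.72. The stem served as the block because the titles name it, and this correlation, from the same data, is a description only. Positions and lengths are from GENCODE M21 (GRCm38). Depth was estimated from genes with 1 annotated transcript of at least 300 bases, so counting intervals were not given. Alternatives were the terms, pseudocount, filter, scaling, length trend, variance trend and leaving out each library.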

Additional observations from a re-analysis of the deposited data

How the results depend on the processing

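The 2 libraries per side limit every result. With the suffix or the stem alone in the fit, 0 members and 0 genes of the wider list passed in either comparison and direction. Over all genes 0 rose and 1 fell with the suffix alone, and 28 were higher and 6 lower with the stem alone. Without the filter on low values 0 members, 0 of the wider list and 0 of all 27670 genes passed in either comparison. With a filter at 0.5 FPKM, 6 members fell with suffix R, and 2 of the wider list rose and 4 fell. Over all 13475 genes in that fit 640 rose and 383 fell, beside 905 and 636 of 11955 in the main fit. With the pseudocount at 0.1 the median member difference was -0.33 with suffix R and 0.18 in stem CT26_102. The wider list then had 5 that fell with suffix R, beside 532 of all 11955 genes, and a median of -0.20. Upper-quartile rescaling gave medians of -0.27 (members) and -0.21 (wider list) with suffix R. It gave 13 of the wider list that fell, beside 1011 of all genes. Median-of-ratios rescaling gave medians of 0.074 and 0.060 in stem CT26_102. There 1 member was lower (Xrcc4) and 5 of the wider list higher, beside 1312 lower and 1189 higher over all genes. With the length trend removed, 2 members were higher and 1 lower in stem CT26_102 and 3 of the wider list were higher. Over all genes 1100 were higher and 1093 lower there. In that fit the stem medians were 0.038 and 0.034, and the wider median with suffix R was -0.10. Without the variance trend, 2 of the wider list rose and 5 fell with suffix R, beside 671 and 438 of all genes. Leaving out each library gives a value with no test: the member median ranged from -0.30 to -0.26 with suffix R and from 0.12 to 0.16 in stem CT26_102, and that of the wider list from -0.17 to -0.14 and from 0.10 to 0.14. No member that passed changed sign in any setting.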
